A study of Homo sapiens with 6 samples.

Results

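The regions described here carried an H3K4me2 peak at both times after the LSD1 inhibitor, in stretches of chromosome where vehicle cells had no peak nearby. To find them, the peaks of the 3 deposited lists on chromosomes 1 to 22 were merged into union regions wherever they overlapped by 1 bp or more. A union region was kept when it held a GSK 4 h peak and a GSK 24 h peak, held no vehicle peak, and lay 20000 bp or more, edge to edge, from the nearest vehicle peak. This left 4262 far regions among 147111 union regions, which is 2.9% of all. The members were thus chosen by the presence or absence of a called peak in each list and by peak positions, so that presence and absence are not a finding.

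The data were H3K4me2 ChIP-seq peaks of LNCaP cells, an androgen-responsive prostate cancer (PCa) line, kept in 5% charcoal-stripped serum for 3 days. The 6 samples formed 3 groups of 2: vehicle without GSK, GSK2879552 for 4 h and GSK2879552 for 24 h. By their treatment labels both GSK groups also received the androgen DHT and the vehicle group did not, although the protocol names the inhibitor alone, so effects of inhibitor and androgen cannot be told apart. One peak list was deposited per group, built from both of its samples, which carry the same index pair in the labels and are not stated to come from separate cultures. No value below therefore has a replicate error, no difference was tested, and the intervals given cover counting error only.

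Dimethylation of lysine 4 on histone H3 marks promoters and enhancers, including enhancers that are primed but not yet active. LSD1 (KDM1A) removes mono- and dimethyl groups from this lysine and sits in the CoREST and NuRD repressor complexes, so inhibiting it is a way to look for sites that it keeps demethylated. In prostate cells, distal enhancers are opened by the pioneer factor FOXA1 and used by the androgen receptor, and many of them lie far from any promoter.

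Signal behind each peak was expressed as the number of ChIP fragments covering its summit, recovered from the deposited fold enrichment (the ratio of the summit to its local background, 1 added to each) and p-value. A whole number of fragments was found for 99.998% of vehicle peaks and for 100% of peaks in either GSK list. The genome-wide background was 2.08 fragments in the vehicle list, 1.88 at GSK 4 h and 1.97 at GSK 24 h. Divided by the length of the shortest peak, this corresponds to 9.43, 10.1 and 8.98 tags per kb. At that background, the weakest peaks rested on 8 fragments in the vehicle list and on 7 in each GSK list.

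The far regions were the distal tail of a larger class. In all, 16137 union regions were in both GSK lists and absent from the vehicle list, and 26.4% of them (95% Wilson interval 25.7 to 27.1%) were far. The other 11875, called near regions here, had a vehicle peak within 20000 bp. In bins of equal width on a log scale, distances of this class formed 2 humps, one close beside vehicle peaks and a larger one around the chosen limit. Such bins widen in bp with distance. There were 4583 regions below 2000 bp, 1746 at 2000 to 5000 bp, 5546 at 5000 to 20000 bp and 2911 at 20000 to 50000 bp. From each of these bands to the next, regions thus became fewer per bp, although finer bins did not all follow this order. No gap in the distances marked the limit itself, since 206 regions lay in the last 1000 bp below it and 188 in the first 1000 bp above it.

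**Figure D1:**
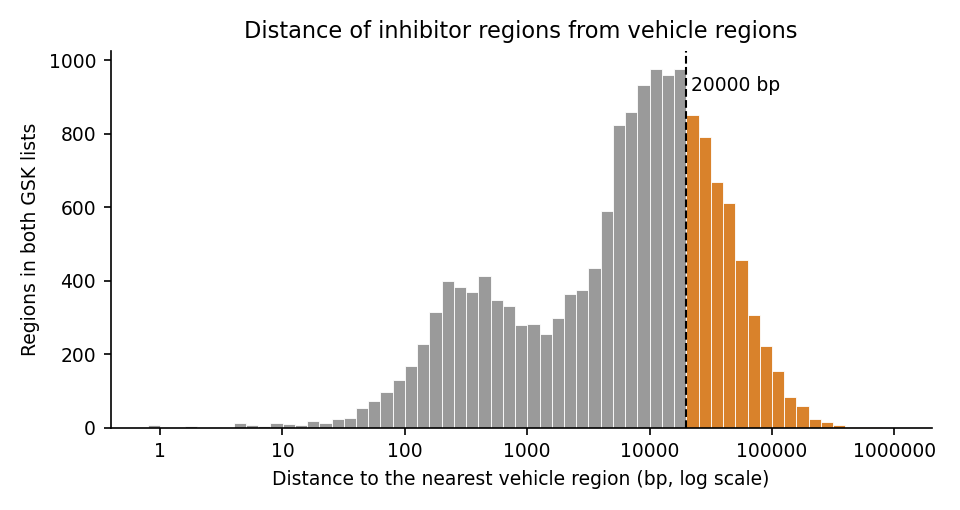
Distance in bp (log scale) from each of the 16137 regions in both GSK lists and not in vehicle to the nearest vehicle peak, against the number of regions per bin. Orange bars are the 4262 far regions and grey bars the 11875 near regions; the dashed line at 20000 bp cuts through the larger hump.

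Among far regions, the median distance to a vehicle peak was 37482 bp (quartiles 26602 and 56469). A distance below 50000 bp was found for 2911 of them, 50000 to 100000 bp for 992, 100000 to 500000 bp for 356, and more for 3. The 2 members nearest the limit had higher folds at 4 h than the 2 regions just outside it, and are given as values only. At 20009 bp, a region on chromosome 10 (129726286 to 129726689, hg19) had a fold enrichment of 4.86 at 4 h and 4.38 at 24 h. The other, at 20011 bp on chromosome 4 (169717239 to 169717793), had 5.20 and 4.72. At 19997 bp, a region left out on chromosome 3 (108110649 to 108111002) had 4.14 and 4.05. Another left out at 19997 bp, on chromosome 8 (116979268 to 116979644), had 4.16 and 4.38.

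Like other regions without a vehicle peak, far regions were weak, narrow peaks. Their median summit was covered by 13 fragments at 4 h (quartiles 11 and 15, range 7 to 34), and the median, quartiles and range at 24 h were the same. The median over every peak on these chromosomes was 21 in each list. Fold enrichment had a median of 4.73 at 4 h and 4.38 at 24 h, against 4.86 and 4.72 over every peak. In rank, the median far region stood at the 45.7th percentile of fold within its list at 4 h and the 41.8th at 24 h, and at 32.3 and 24.8 when ranked by -log10 p. Near regions stood at 32.3 and 29.3 by -log10 p, so low rank was not particular to far regions. Peaks of the far regions were 305 bp (4 h) and 363 bp (24 h) long at the median, against 313 and 350 bp for near regions and 439 and 495 bp over every peak. Of the 4262, 362 at 4 h (8.49%) and 321 at 24 h (7.53%) had the shortest length their list allows, 186 and 219 bp. The shares were 6.63% and 6.90% for near regions and 5.32% and 5.09% over every peak. That length is taken as a single fragment length.

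The local background was the genome-wide level, the lowest the peak caller uses, at the summit of 84.9% of far regions at 4 h and 75.7% at 24 h. For near regions the shares were 41.7% and 34.7%, and over every peak 28.6% and 25.1%. As the rule admits no vehicle peak within 20000 bp, the background may depend on the choice of members. How far it does was not tested, and these shares are given as values only. The median near region had a taller summit, 15 fragments at either time, but a lower fold of 4.26 (4 h) and 4.05 (24 h). That contrast came from near regions within 5000 bp of a vehicle peak. Median summits were 20 fragments below 2000 bp and 17 at 2000 to 5000 bp, and 5.43% and 8.08% had the genome-wide background in both lists. The 5546 near regions at 5000 to 20000 bp were close to the far regions, with 13 fragments and folds of 4.51 and 4.38 at 4 h and 24 h, against 13 fragments and 4.71 and 4.38 at 20000 to 50000 bp. The share at the genome-wide background in both lists kept rising with distance, from 54.7% at 5000 to 20000 bp to 66.5% at 20000 to 50000 bp, 75.6% at 50000 to 100000 bp and 80.9% at 100000 to 500000 bp, while the median summit stayed at 13 fragments in both lists.

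**Figure D2:**
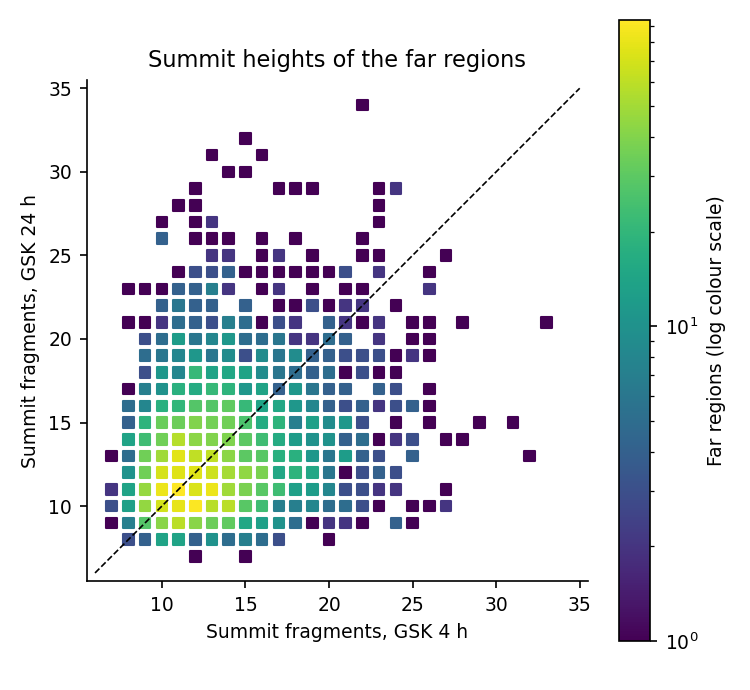
Fragments at the summit at GSK 4 h (x axis) and GSK 24 h (y axis) for the 3981 far regions with 1 peak in each GSK list; colour gives the number of regions at each pair of values on a log scale, and the dashed line marks equal heights. Regions crowd at low heights, and few are tall at both times.

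Ranked by the lower of their fold percentiles at 4 h and 24 h, the strongest far region lay on chromosome 6 from 128292952 to 128293653 (hg19), 31801 bp from a vehicle peak. Its fold enrichment was 9.32 at 4 h and 7.96 at 24 h, with 26 fragments (95% Poisson interval 17.0 to 38.1) and 23 fragments (14.6 to 34.5) at the summit. The summits of its 2 peaks were 3 bp apart, inside a stretch of 551 kb without a vehicle peak.

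At rank 2, chromosome 9 from 12494429 to 12494941 had a fold of 8.33 at 4 h and 7.72 at 24 h, with 23 and 27 fragments. Both of these regions exceeded the 90th percentile of each list, and no other far region did. The region at rank 3, on chromosome 5 from 65966996 to 65967471, had 8.03 and 8.97, and its summit was taller at 24 h (28 fragments) than at 4 h (23).

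At ranks 4 and 5, regions on chromosome 1 (161794824 to 161795583) and chromosome 5 (105800385 to 105801517) each had a fold of 7.46 at 24 h, with 8.28 and 8.67 at 4 h. The latter had its summit at the same base at both times, while its peak was 422 bp long at 4 h and 1133 bp at 24 h. A region on chromosome 1 from 73089058 to 73089471, at rank 6, stood at 7.98 at 4 h and 9.10 at 24 h. The remaining 6 of the leading 12 lay on chromosomes 2, 4, 6, 8, 11 and 13 with 21 to 34 fragments at the summit in either list.

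Of these, the region on chromosome 4 (71121716 to 71122249) had the tallest 24 h summit of all far regions, 34 fragments and a fold of 10.8, against 22 fragments and 7.98 at 4 h. Its Poisson intervals, 13.8 to 33.3 at 4 h and 23.5 to 47.5 at 24 h, overlapped. The region on chromosome 6 from 73113401 to 73113783 was the most remote of the 12, at 142341 bp from a vehicle peak, with folds of 7.98 and 7.42. In all 12 the intervals at 4 h and 24 h overlapped. The 12 were picked for a high fold at both times, and overlap is not a test, so no conclusion on the times is drawn. In 11 of the 12 the summits at the 2 times were at most 76 bp apart.

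**Figure D3:**
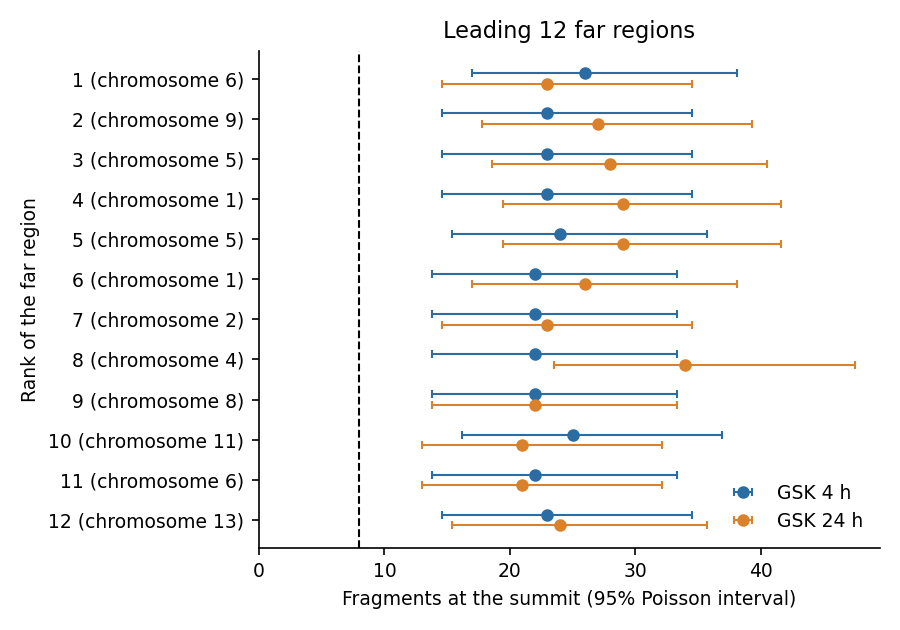
Fragments at the summit, with 95% Poisson intervals, of the 12 far regions with the highest lower fold percentile, by rank, at GSK 4 h (blue) and GSK 24 h (orange). The dashed line marks the 8 fragments of the weakest vehicle peaks at genome-wide background, without rescaling. Some of these summits stand on a higher background, where that limit does not hold. All intervals lie above the line, which follows from choosing the strongest regions. The intervals of the 2 times overlap in every region.

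The leading regions were exceptions. A summit of at least 20 fragments was reached by 297 far regions at 4 h and 275 at 24 h, but by only 57 (1.34%) at both times. At both times 1139 (26.7%) had 12 fragments or fewer. The limit of 8 fragments in the vehicle list holds at the genome-wide background, so summits were set against it only where both GSK lists had that background, in 2975 far regions. It is the lowest vehicle summit at that background, reached by 11 peaks, while the median there was 14. The vehicle background at the far regions themselves is not known. Rescaled by the genome-wide backgrounds, the lower Poisson bound exceeded 8 fragments at both times in 442 of these (14.9%, 13.6 to 16.2%). The share was 11.5% for near regions, 41.8% for regions in all 3 lists and 28.1% over the 13408 regions of both GSK lists with that background. For the remaining far regions so compared, the bound was at or below the limit at one or both times. The level in vehicle cells was not measured at any of them, as a peak list gives no value where there is no peak.

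Tall summits seldom lacked a vehicle peak. Among regions in both GSK lists, the lower of the 2 summits was 9 fragments or fewer in 2725, and of these 33.0% (31.3 to 34.8%) also held a vehicle peak and 25.3% were far regions. For a lower summit of 12 to 13 fragments, 59.3% held a vehicle peak and 12.7% were far. At 20 or more fragments, 94.6% (94.4 to 94.8%) of 48891 held a vehicle peak and 0.117% were far. Much of that last class stands on a raised background, where far regions are rare. With the genome-wide background in both lists, 389 regions had 20 or more fragments, of which 95.1% (92.5 to 96.9%) held a vehicle peak and 15 (3.86%, 2.35 to 6.26%) were far.

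The far regions were drawn from a wider set of GSK peaks with no vehicle peak within 20000 bp, and only part of that set was seen at both times. Of 9203 such regions at 4 h, 46.3% (45.3 to 47.3%) were found again at 24 h, and of 10575 at 24 h, 40.3% (39.4 to 41.2%) had been present at 4 h. Taller summits recurred more often. The share was 27.8% for 4 h summits of 9 fragments or fewer, 47.7% at 12 to 13 fragments and 86.3% (82.3 to 89.6%) at 20 or more. For 4 h regions with a vehicle peak, recurrence was 76.0% at 9 fragments or fewer, 83.5% at 12 to 13 and 97.5% at 20 or more. For 4 h regions without a vehicle peak but with one within 20000 bp, it was 24.0%, 39.6% and 53.6% (52.4 to 54.8%) at the same heights. At 20 or more fragments, the share was thus higher for distant regions than for those beside a vehicle peak, a difference that was not tested. Their local backgrounds also differed. A region beside a vehicle peak also left its set when its 24 h peak merged with that vehicle peak. In the other direction, 24 h summits of 20 or more had been present at 4 h in 75.1% (70.5 to 79.3%) of distant regions and in 57.4% (56.2 to 58.7%) of those beside a vehicle peak. At 9 fragments or fewer these shares were 27.2% and 30.2%. Over all heights they were 40.3% and 45.0%, so the order was reversed there. From 4 h to 24 h the shares over all heights were 46.3% for distant regions and 42.0% beside a vehicle peak.

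**Figure D4:**
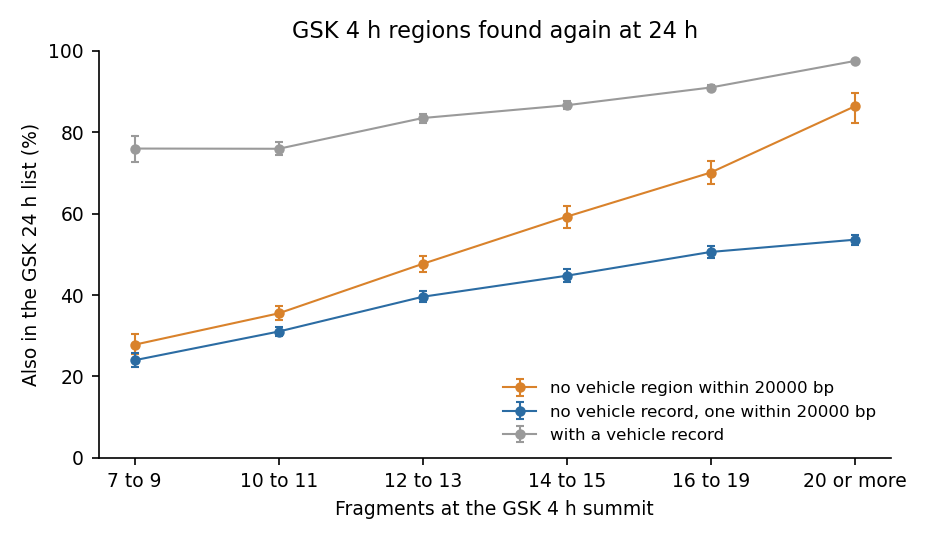
Share of GSK 4 h regions that overlap a GSK 24 h peak (%, with 95% Wilson intervals) by fragments at the 4 h summit. Orange points are regions with no vehicle peak within 20000 bp, blue points those with no vehicle peak of their own but one within 20000 bp, and grey points those with a vehicle peak; the orange share rises from 27.8% to 86.3%.

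The number of far regions changed when the lists were cut to equal length. On these chromosomes there were 97240 vehicle peaks, 124364 at GSK 4 h and 123292 at GSK 24 h. The rule was also applied with each other list as the absent one, a comparison chosen after the results were known. It gave 850 regions present in vehicle and GSK 24 h and at least 20000 bp from GSK 4 h, and 527 present in vehicle and GSK 4 h and that far from GSK 24 h, against 4262 for absence from vehicle. With each list cut to its 97240 peaks of highest -log10 p, the counts came closer, at 1617 and 1132 against 1839. This cut shortens the GSK lists and raises their threshold together, so length and threshold cannot be told apart. Absence from vehicle still gave the highest count at equal length, by 1.14 times over absence from GSK 4 h, and no replicate list shows how far such counts vary.

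The order of the 2 times was not part of the rule and could be compared. Of the 3981 far regions with 1 peak in each GSK list, 50.8% (49.2 to 52.3%) had a higher fold percentile at 24 h than at 4 h, beside 48.7% of the 70738 regions so matched in the whole series. By summit fragments per genome-wide background, 43.0% (41.5 to 44.6%) were higher at 24 h, beside 39.9% of all matched regions. A rise of at least 1.5-fold on that scale was seen in 264 far regions (6.63%; 7.57% of all) and a fall of at least 1.5-fold in 472 (11.9%; 17.6% of all). Both shares were below those of all matched regions, but near regions had similar ones (6.10% and 12.7%). All regions compared had to be called at both times, which limits the change that a low summit can show. At the median, the height at 24 h relative to 4 h was -0.063 on the log2 scale (quartiles -0.36 and 0.20). The median was -0.063 for near regions as well, and -0.14 over all matched regions. Heights at 4 h and 24 h were weakly related across far regions (Pearson r = 0.24, Spearman rho = 0.22, n = 3981). Both values are cut off by a calling threshold and span a narrow range.

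The widest gains between the times were in regions barely called at 4 h. On chromosome 3 from 59843279 to 59843614, the summit had 8 fragments (3.5 to 15.8) at 4 h and 23 (14.6 to 34.5) at 24 h, and the fold went from 3.12 to 8.09. Also on chromosome 3, the region from 144873404 to 144873779 had 9 and 23 fragments, and on chromosome 4 the region from 43436759 to 43437445 had 9 and 21. All 3 had the shortest possible peak, 186 bp, at 4 h.

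The widest losses mirrored them. On chromosome 7 from 137928208 to 137928581, the summit had 27 fragments (17.8 to 39.3) at 4 h and 11 (5.5 to 19.7) at 24 h, with folds of 9.66 and 3.45. The regions on chromosome 21 from 40206652 to 40207064 and on chromosome 5 from 165057455 to 165057817 both had 24 fragments at 4 h and 9 at 24 h. In each of these 6 regions the Poisson intervals of the 2 times overlapped. As the extremes of 3981 they are given as values only.

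Summit positions matched between the times about as well as in other classes, and peak extents less well. The summits were 88 bp apart at the median (quartiles 38 and 164), and 54.8% were within 100 bp, about as for near regions (82 bp, 57.9%) and for regions in all 3 lists (83 bp, 56.3%). At 4 h and 24 h, 63.9% of far regions had peaks covering at least 50% of each other, against 68.8% of near regions and 86.4% of regions in all 3 lists. Of the 3981 far regions with 1 peak in each GSK list, the 24 h peak was the longer one in 62.9%, against 59.5% of near regions and 54.9% of regions in all 3 lists. Its list also has the longer minimum.

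Most far regions stood alone. A second far region within 50000 bp was found for 28.5% (27.2 to 29.9%) of them, in 559 groups, of which 475 were pairs. The largest group held 5 regions over 85.8 kb of chromosome 5, inside 295 kb without a vehicle peak. From left to right its members had 12, 12, 12, 17 and 14 fragments at 4 h and 11, 22, 18, 14 and 14 at 24 h. The member from 123672456 to 123672817 was the one that differed most, with a fold of 4.51 at 4 h and 7.75 at 24 h.

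Another 11 groups held 4 regions each, and 2 of them are given as the first in the order of chromosome names. Over 69.9 kb of chromosome 1, from 104173696 to 104243637, the 4 h summits had 8, 19, 10 and 17 fragments and the 24 h summits 9, 16, 16 and 9. Over 99.4 kb of chromosome 10, from 55338037 to 55437419, the 4 h summits had 12, 13, 17 and 11 fragments and the 24 h summits 28, 15, 16 and 22. In each of these 3 groups some members had more fragments at 4 h and others at 24 h.

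Far regions occupied a minority of the vehicle-free stretches. The vehicle list left 19017 intervals of at least 40000 bp between neighbouring peaks, and 17.5% of these (3329) held a far region. A single far region was found in 2613 of them, 2 in 548 and 3 or more in 168. The most in any interval was 6. Positions at least 20000 bp from a vehicle peak made up 40.2% of the spanned length (1125 of 2796 Mb, unsequenced gaps included) and held 3.79 far regions per Mb. The remaining length held 7.11 near regions per Mb.

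The most remote far region lay on chromosome 16 from 7505956 to 7507071, 652001 bp from a vehicle peak and within 1320 kb free of them. It had 16 fragments at 4 h, where 2 peaks shared the region, and 14 at 24 h. On chromosome 10, the regions from 67329881 to 67330825 and from 67553574 to 67554220 lay in 1 vehicle-free stretch of 1264 kb, at 523087 and 516244 bp. Their summits had 11 and 9 fragments at 4 h and 15 and 18 at 24 h, with overlapping Poisson intervals. On chromosome 6, the region from 68122728 to 68123033, at 463170 bp, had 9 and 13 fragments.

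The vehicle peaks nearest to far regions stood near the middle of the vehicle list by fold, but had lower summits. There were 3616 of them, with a median fold percentile of 54.1 in the vehicle list and a median of 17 summit fragments, against 23 over all vehicle peaks. They were in all 3 lists in 77.2% of cases, beside 81.4% of all vehicle peaks.

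By chromosome, the share of inhibitor regions that were far ran from 12.1% on chromosome 17 and 13.4% on chromosome 19 to 35.1% on chromosome 4 and 37.1% on chromosome 13. The room for them varied in the same way, since 25.4% and 21.0% of the spanned length of chromosomes 17 and 19 lay at least 20000 bp from a vehicle peak, against 50.9% and 52.0% of chromosomes 4 and 13. Per Mb of that room, the 4 chromosomes were close, with 3.26, 3.06, 3.38 and 3.44 far regions. The density was highest on chromosome 15 (6.31), chromosome 10 (5.15) and chromosome 22 (5.09), and lowest on chromosome 9 (2.76) and chromosome 1 (2.86). The room counts unsequenced gaps, whose length on each chromosome was not measured, so the order without them is not known. Gene-poor chromosomes 4 and 13 thus differed from gene-rich 17 and 19 in the vehicle-free length more than in far regions per Mb of it. Gains and losses of chromosome copies in LNCaP cells, which change the fragments per locus, were not measured here.

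**Figure D5:**
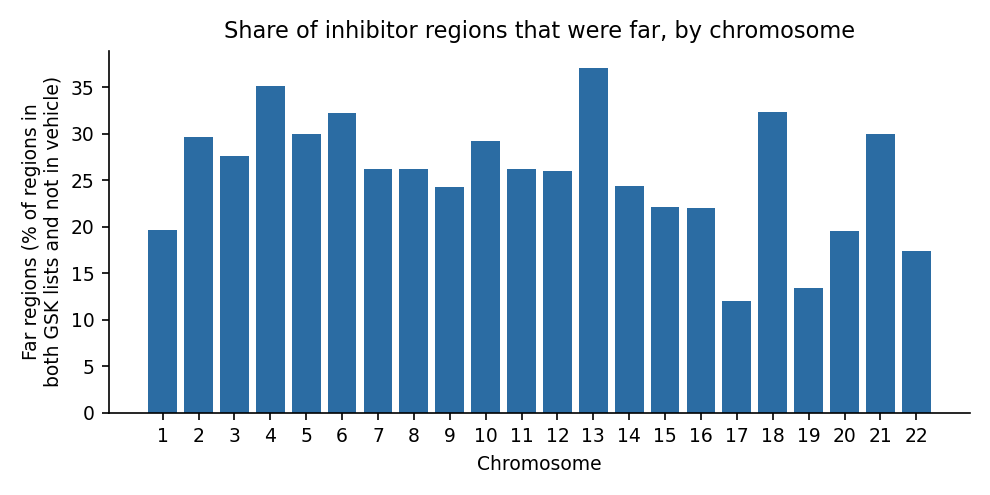
Far regions as a share (%) of the regions in both GSK lists and not in vehicle, for chromosomes 1 to 22. Chromosomes 17 and 19 have the lowest bars (12.1% and 13.4%) and chromosomes 4 and 13 the highest (35.1% and 37.1%).

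Genes, promoters and DNA sequence at the far regions were not analysed here, because the peaks are in hg19 and the gene and promoter tables used here are in GRCh38. For the same reason the check of LNCaP marker genes was not made.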

How the data were processed

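H3K4me2 was profiled by ChIP-seq in LNCaP cells under vehicle and at 4 and 24 h of GSK2879552. The submitters' processing notes name BWA 0.7.2-r351, SAMtools 0.1.18, MACS2 2.0.10.20131216 and hg19 (GRCh37). Settings, any input control and duplicate handling are not given in the sources used here. For each group the authors deposited a single peak list with the peak caller's fold enrichment (the ratio of summit to local background), p- and q-values on the -log10 scale, display score (not used) and summit offset, none of them normalised between lists.

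From these, union regions, distances and percentiles within each list (chromosomes 1 to 22) were computed with Python 3.11.15, pandas 2.3.3 and SciPy 1.17.1. A union region with several peaks of a list took the values of the peak with the highest fold. Summit fragments were the whole number k for which fold = (k + 1)/(background + 1) and p was the Poisson chance of exceeding k, within 0.001 on the -log10 p scale. The step was tested on simulated data. A longer fragment raises both a summit and its background, and removing duplicates compresses tall summits.

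The members, groups and comparisons were chosen with earlier results of these data known. Regions named are the 12 with the highest lower fold percentile, the 4 most remote, the 3 largest groups chained within 50000 bp (ties by chromosome name), the 3 extremes of the 24 h minus 4 h percentile in each direction, and those nearest the distance limit. The alternatives were other distances, -log10 q thresholds, equal list lengths, stricter overlap, added chromosomes and other rankings. Planned results on sequence, genes and marker genes were not run.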

Additional observations from a re-analysis of the deposited data

Results flagged for a closer look

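Chromosome X lies outside the regions compared above, and 210 regions there were in both GSK lists and at least 20000 bp from a vehicle peak. The count is set by the same rule of presence and absence and is given as a value only. They made up 42.6% of the 493 regions on that chromosome that both GSK lists held and vehicle lacked, and 51.4 per 1000 of its union regions. Over chromosomes 1 to 22 the corresponding values were 26.4% and 29.0. The highest of these chromosomes on both was chromosome 13, with 37.1% and 44.4. The length of chromosome X at least 20000 bp from a vehicle peak was not measured.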

How the results depend on the processing

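No paired analysis was possible because the lists hold no values of single samples, and for that reason no replicate could be left out. The number of far regions (4262) and their share of inhibitor regions (26.4%) became 7184 and 44.5% at a distance of 10000 bp or more, and 1351 and 8.37% at 50000 bp or more. Keeping GSK peaks of -log10 q 5 or more beside the whole vehicle list gave 1493 and 24.7%, and at 10 they were 94 and 17.7%. With all 3 lists at 5 they were 3211 and 29.3%, and at 10 they were 2672 and 41.5%; here weak vehicle peaks no longer count against a region. Lists of equal length gave 1839 and 25.2%, and peaks covering 50% of each other gave 2631 and 24.9%. Adding chromosomes X and Y gave 4516 and 27.0%.

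The share of far regions higher at 24 h, 50.8% by fold percentile, was 45.2% by percentile of -log10 p, 41.9% by deposited fold and 43.0% by summit fragments per background. It was 60.4% among far regions with a -log10 q of 5 or more in each GSK list, and 51.7% at 50000 bp or more. At the genome-wide background, that q cut admits 12 fragments at 4 h (40.9th fold percentile) but needs 13 at 24 h (50.3rd). The cut thus sets a higher entry rank at 24 h. The same share over all matched regions was not computed, so 60.4% is given as a value only. The order of the times thus depended on the scale. The median fold percentile at 4 h (45.7) was 32.3 by -log10 p, and that at 24 h (41.8) was 24.8 by -log10 p, 43.6 at 50000 bp or more and 41.83 with chromosomes X and Y. The share with another far region nearby (28.5%) was 19.2% within 20000 bp and 40.1% within 100000 bp. The tolerance for whole-number summits changed no list. With a median of 13 fragments at the summit, a region missing from a list can lie just below its threshold, and the cause of these shifts was not tested.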
